A study of Mus musculus with 8 samples.

Results

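Aminoacyl-tRNA synthetases are the enzymes that join each amino acid to its transfer RNA. Their transcripts were measured in muscle stem cells of mice given ketone bodies or phosphate-buffered saline (PBS). Members were found by gene symbol in the authors' table of normalized read counts, which holds 25237 named genes. Of 35 listed members 33 were found, namely 19 of 20 cytosolic enzymes and 14 of 15 mitochondrial enzymes, and Mars and Mars2 were not analysed here. Lars2 was left out of the mitochondrial enzymes because its reads followed ribosomal RNA. The ketone group had 4 libraries of male mice aged 2 to 4 months given ketone bodies, with strain entries C57BL/7, C57BL/8, C57BL/9 and C57BL/9. The PBS group had 4 libraries of male mice of the same age given PBS, all with the strain entry C57BL/6. All cells came from hindlimb muscle, sorted as VCAM1+/CD31-/CD45-/Sca1-. If the strain entries name strains, strain and treatment cannot be told apart. Whether the 4 libraries of a group are 4 animals is not in the labels; p-values therefore speak of variation among libraries, some of which can be technical.

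Each synthetase recognises 1 amino acid and the matching tRNAs, and the charged tRNA is then carried to the ribosome by an elongation factor. Cells hold a cytosolic set of these enzymes and a separate mitochondrial set, both encoded in the nucleus, and the mitochondrial genes carry a 2 at the end of their symbols. Gars and Kars each encode the enzymes of both compartments. In mammals, many cytosolic synthetase genes are known targets of ATF4, the transcription factor of the integrated stress response that acts when amino acids are short. ATF4 binds, with a partner, to a composite element whose core is TGATGNAA.

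Depth was 25465671 to 36870537 recovered reads in the ketone libraries and 19174005 to 29689632 in the PBS libraries. The 10 muscle stem cell markers summed to 319363 to 445574 normalized counts in ketone libraries and 381705 to 418153 in PBS libraries. Of these markers Cdh15, Itga7, Calcr and Vcam1 fell, and Pax7 was at a log2 change of -0.24 (limma adjusted p = 0.265). Myf5, at -0.39, did not pass. Chodl, Cxcr4, Sdc4 and Des, at 0.48, 0.36, 0.09 and 0.03, did not pass either. For Chodl every ketone library was above every PBS library. Most of the marker sum came from Sdc4, Chodl and Des, so it says little about the markers that fell. All 17 endothelial markers rose, and their sum was 49524 to 114424 in ketone libraries and 12818 to 16088 in PBS libraries, although the sort was for CD31- cells. Pecam1, which encodes CD31, stood at 4260, 5606, 2130 and 4935 in ketone libraries, and at 680, 649, 907 and 694 in PBS libraries. Blood and immune markers summed to 1320 to 8579 in ketone libraries and 743 to 1078 in PBS libraries, with 7 of 14 tested higher and the haemoglobin genes Hba-a1 and Hbb-bs at 0 in every library. Smooth muscle and pericyte markers summed to 17221 to 30164 in ketone libraries and 13448 to 15304 in PBS libraries (7 of 10 rose, Acta2 fell), and Schwann cell markers to 16919 to 22055 in ketone libraries and 14377 to 15313 in PBS libraries (6 of 8 rose). Myofiber markers, of which 9 of 12 rose, summed to 30527 in ketone library 1, 4302 to 5734 in the other 3 ketone libraries and 3666 to 4904 in PBS libraries. Fibro-adipogenic markers summed to 61653 to 104826 in ketone libraries and 74586 to 103788 in PBS libraries, and 4 of 8 rose while Dpt and Col1a1 fell. Ly6a, which encodes Sca1, was among those that rose, although the sort was for Sca1- cells. It stood at 6102, 5665, 2320 and 5543 in ketone libraries, and at 506, 569, 514 and 550 in PBS libraries. Ketone libraries 1 and 2 held 363069 and 396262 normalized counts of the ribosomal RNA precursor Rn45s, against 60108 to 118863 in the other libraries. The part of other cell types, of ribosomal RNA and of strain in the results was not tested. In such bulk samples, fewer cells of a type and less RNA per cell cannot be told apart.

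The promoters of 5 cytosolic synthetase genes held the core letters of the ATF4 element, and these 5 genes were among the 6 with the largest falls. The stretches are shown for that reason, although 5 of the 7 cytosolic genes searched that held no match fell too. They were read from RefSeq promoters of build GRCm38.p6, which run from 250 bases before to 50 bases after the transcription start. Both strands were searched for TGATGNAA, which reads TTNCATCA on the other strand. Each stretch is 30 bases long in the direction of its gene, with the match in capitals and 11 bases on either side.
Tars, chr15:11399655-11399684, minus strand, match starting at position -15: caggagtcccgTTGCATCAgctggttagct
Aars, chr8:111033840-111033869, plus strand, match starting at position 10: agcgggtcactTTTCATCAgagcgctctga
Gars, chr6:55037960-55037989, plus strand, match starting at position -30: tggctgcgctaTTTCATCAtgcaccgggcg
Iars, chr13:49682126-49682155, plus strand, match starting at position 8: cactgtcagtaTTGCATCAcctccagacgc
Yars, chr4:129189895-129189924, plus strand, match starting at position 4: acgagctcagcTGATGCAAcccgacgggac
Positions count from 1 at the start site, and those before it are negative. The matches of Tars, Iars and Yars share the letters TGATGCAA, and those shown for Gars and Aars read TGATGAAA. Aars held 2 matches, and its other match, starting at position -112 and not shown, reads TGATGCAA. A match of letters is a description and not a measured binding site.

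The promoter table matched 24 of the 33 members. Of 12 cytosolic genes with a promoter there, 5 held the motif (41.7%), against 0 of 12 mitochondrial genes. The share was 4.51% among 27025 genes with a promoter and 2.73% among the 10999 of them that were tested. All 5 cytosolic genes with the motif were called lower, as were 5 of the 7 without it. Log2 changes of the 5 with the motif ran from -1.27 to -1.04. The 7 without it (Farsb, Farsa, Dars, Eprs, Kars, Sars and Qars) ran from -0.90 to -0.24, so these 2 sets did not overlap. Among all tested genes the motif went with no such difference: 36 of 300 genes with it were called lower (12%, median log2 change -0.00), as were 13.2% of the 10699 without it (median -0.02). Cars, Hars, Lars, Nars, Rars, Vars, Wars, Hars2 and Pars2 had no promoter in the table. Of these, Vars (log2 change -1.07) lay within the range of the genes with the motif, and Cars was at -1.03. Whether they hold the motif is not known here, so the lack of overlap covers only the 12 cytosolic genes searched.

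Transcripts of the cytosolic synthetases were lower in ketone libraries as a family. Of 19 tested, 16 fell and 0 rose, where 12.8% of all 14022 genes tested were called lower and 12.8% higher (limma adjusted p below 0.05). The 3 that did not pass, Sars, Qars and Wars, also had log2 changes below 0. The median log2 change was -0.74, against -0.01 over all genes tested. In 14 of the 19 every ketone library was below every PBS library, which held for 14.1% of all genes tested. A fall of at least 2-fold was seen for 7 members, against 4.48% of all genes tested. These fold changes are on the log2(normalized count + 1) scale, with the limma standard error (SE) or 95% interval.

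**Figure D1:**
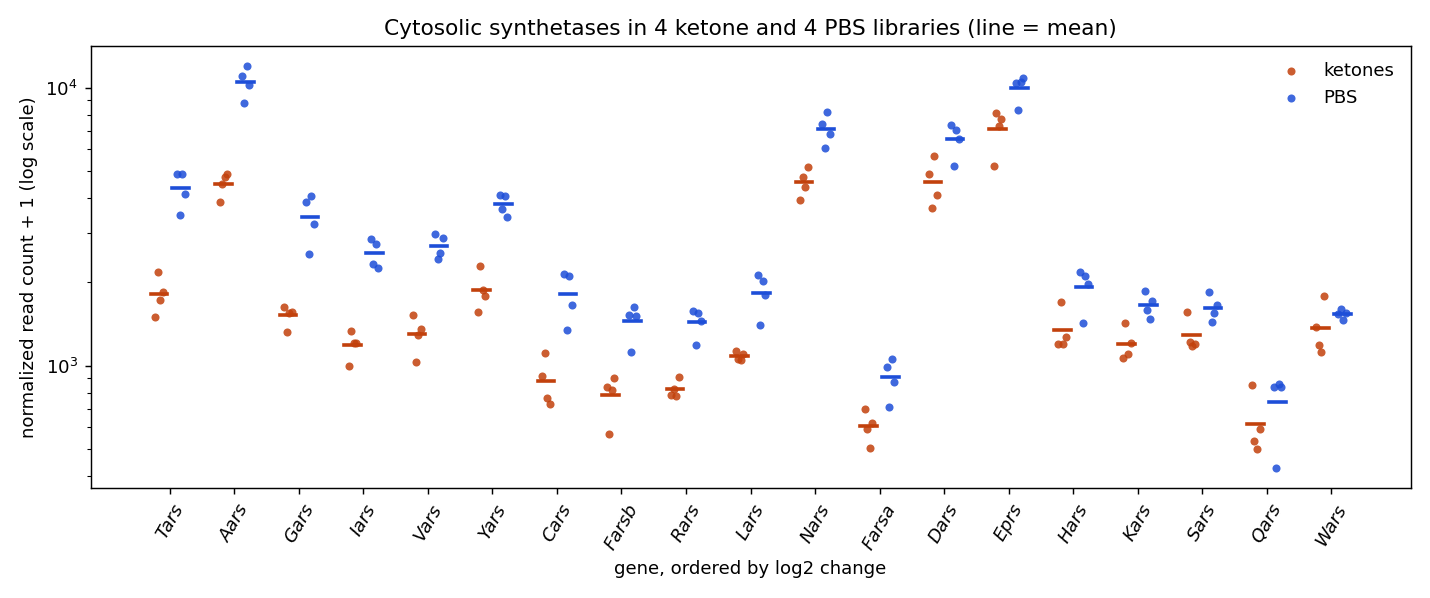
Normalized read count + 1 on a log scale (y axis) for 19 cytosolic synthetase genes (x axis, from the lowest log2 change on the left) in 4 ketone libraries (left of each pair) and 4 PBS libraries (right). Points are libraries and lines are group means, and the groups do not overlap for 14 genes, from Tars to Farsa on the left and for Eprs and Kars further right.

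The largest fall was that of Tars, the threonyl-tRNA synthetase (chromosome 15, 11382301 to 11399665, GRCm38). Tars had 1496, 2174, 1716 and 1832 normalized counts in ketone libraries 1 to 4, and 4879, 3484, 4877 and 4135 in PBS libraries 1 to 4. Every ketone library was below every PBS library, and the ketone mean was 41.5% of the PBS mean. The log2 change was -1.27 ± 0.16 (SE), with limma adjusted p = 9.26e-05. Aars, which charges alanine (chromosome 8, 111033144 to 111057664), came next. It had 3872, 4498, 4777 and 4905 counts in ketone libraries, and 11042, 8766, 11954 and 10248 in PBS libraries. Its groups stood furthest apart among the members, with the gap between the highest ketone and the lowest PBS library at 36.8% of the PBS mean, and its log2 change was -1.21 ± 0.15 (limma adjusted p = 6.1e-05). Exons of Aars share bases with those of Exosc6 on the same strand, and those of Farsb, Yars, Ears2, Cars2 and Fars2 share shorter stretches with neighbouring genes, so the reads there are uncertain.

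Gars, the glycyl enzyme of both compartments (chromosome 6, 55038007 to 55079500), had 1623, 1324, 1549 and 1560 counts in ketone libraries, and 3880, 2527, 4071 and 3224 in PBS libraries. Its ketone values lay close together (mean 1514 ± 130, SD, n = 4) and its PBS values spread more widely (3426 ± 701, SD, n = 4). The log2 change of Gars was -1.16 ± 0.17 (limma adjusted p = 0.000239). Iars, the isoleucyl enzyme (chromosome 13, 49682100 to 49734267), had 999, 1329, 1203 and 1204 counts in ketone libraries, and 2847, 2329, 2737 and 2242 in PBS libraries. The Iars groups were clearly apart, with a log2 change of -1.10 ± 0.15 (limma adjusted p = 0.000147). Vars, the valyl enzyme (chromosome 17, 35000987 to 35016322), had 1526, 1033, 1283 and 1352 counts in ketone libraries, and 2962, 2423, 2536 and 2883 in PBS libraries. Library 1 was the highest of each group for Vars, and its log2 change was -1.07 ± 0.15.

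Yars, the tyrosyl enzyme (chromosome 4, 129189760 to 129219607), had 1564, 2279, 1874 and 1776 counts in ketone libraries, and 4113, 3670, 4068 and 3421 in PBS libraries. Its ketone mean was 49.1% of its PBS mean (log2 change -1.04 ± 0.15). Cars, the cysteinyl enzyme (chromosome 7, 143557230 to 143600090), had 915, 1113, 762 and 728 counts in ketone libraries, and 2142, 1345, 2094 and 1647 in PBS libraries. The Cars groups did not overlap, but PBS library 2 came nearest to the ketone values, and the log2 change was -1.03 ± 0.19 (limma adjusted p = 0.0015). Phenylalanine is charged by an enzyme of 2 kinds of subunit, and both subunit genes fell. Farsb, the beta subunit (chromosome 1, 78417975 to 78488897), had 838, 567, 816 and 902 counts in ketone libraries, and 1526, 1121, 1625 and 1511 in PBS libraries. Farsa, the alpha subunit (chromosome 8, 84856989 to 84869257), had 697, 592, 503 and 621 in ketone libraries, and 986, 712, 1057 and 874 in PBS libraries. Their log2 changes were -0.90 ± 0.18 for Farsb and -0.58 ± 0.18 for Farsa, whose highest ketone and lowest PBS libraries lay close to each other.

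**Figure D2:**
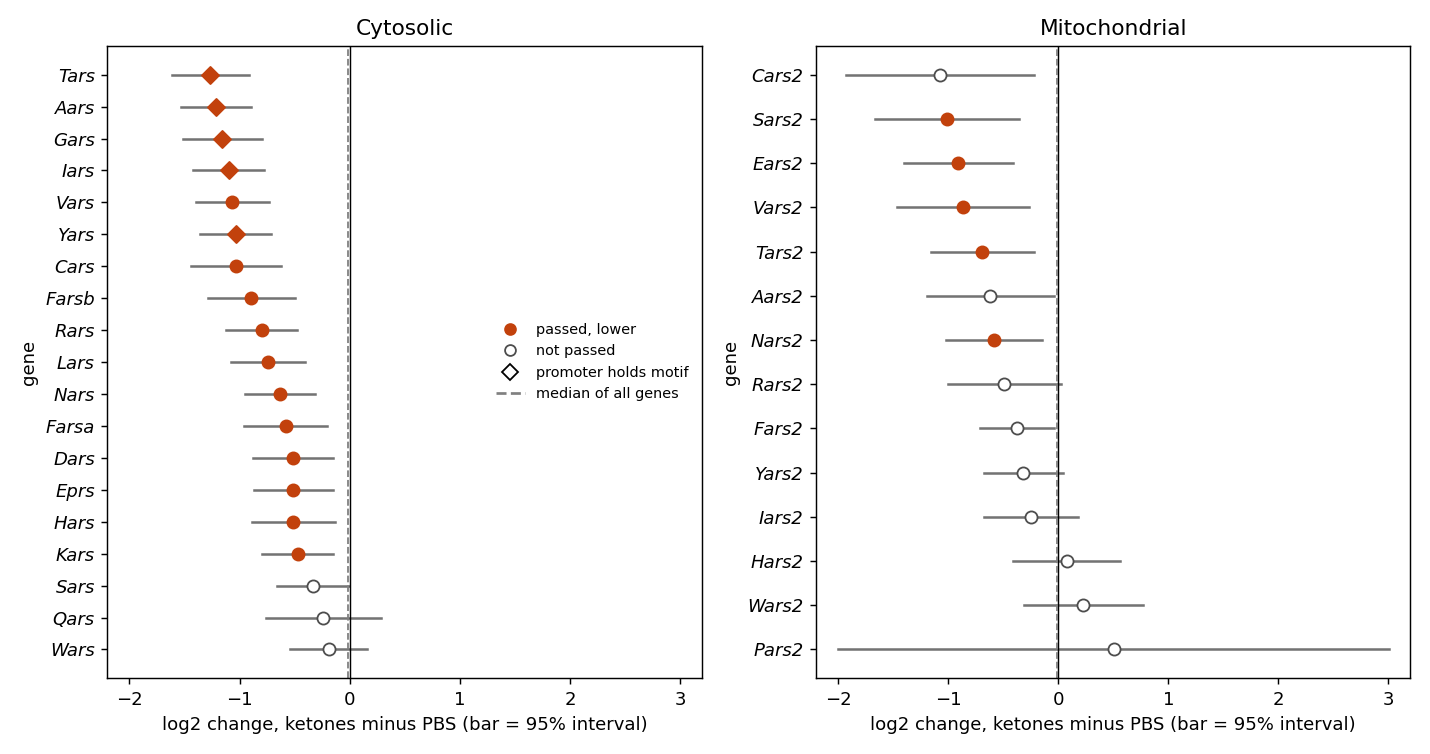
Log2 change, ketones minus PBS (x axis, bars give the 95% interval of limma), of 19 cytosolic and 14 mitochondrial synthetase genes (y axis). Filled markers passed as lower, open ones did not pass, and the dashed line is the median of all genes. Diamonds have the motif in their promoter, and the 5 diamonds lie between -1.27 and -1.04. Circles include the 9 genes with no promoter to search, Vars and Cars among them.

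Rars, Lars and Nars formed a middle range of changes. Rars (arginine) had 784, 824, 777 and 906 counts in ketone libraries, and 1574, 1189, 1541 and 1442 in PBS libraries. Lars (leucine) had 1127, 1053, 1048 and 1098 in ketone libraries, and 2111, 1401, 2009 and 1795 in PBS libraries. In Lars the ketone libraries were almost level (1081 ± 37.6, SD, n = 4), while the PBS libraries spread more widely (1829 ± 314, SD, n = 4). Nars (asparagine) had 3941, 4782, 4380 and 5186 in ketone libraries, and 7396, 6065, 8139 and 6822 in PBS libraries. None of these 3 genes overlapped between groups, and their log2 changes were -0.80, -0.74 and -0.63 (limma adjusted p = 0.00167, 0.00362 and 0.00663).

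Dars, Eprs, Hars and Kars passed with smaller changes, of -0.47 to -0.52 on the log2 scale. Eprs encodes 1 protein that charges both glutamate and proline, and had 5230, 8099, 7257 and 7695 counts in ketone libraries, and 10389, 8332, 10450 and 10800 in PBS libraries. Ketone library 2 and PBS library 2 were nearly level for Eprs. Kars (lysine, both compartments) had 1062, 1422, 1104 and 1202 in ketone libraries, and 1855, 1588, 1475 and 1710 in PBS libraries, with no overlap. Dars (aspartate) had 4889, 3687, 5655 and 4097 in ketone libraries, and 7344, 5211, 7038 and 6533 in PBS libraries. Hars (histidine) had 1200, 1698, 1197 and 1268 in ketone libraries, and 2173, 1427, 2096 and 1960 in PBS libraries. In Dars and Hars the groups overlapped, because PBS library 2 was below the highest ketone library. Limma adjusted p of these 4 genes was 0.0333 to 0.0467, and each lost its call in some of 18 alternative analyses, as did Farsa.

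Of the 3 cytosolic genes that did not pass, Wars is known to be induced by interferon and Qars supplies glutaminyl-tRNA. Wars had 1378, 1190, 1122 and 1776 counts in ketone libraries, and 1537, 1603, 1464 and 1542 in PBS libraries, with ketone library 4 above all PBS libraries. The 95% interval of its log2 change was -0.54 to 0.16, so a fall as large as that of Tars lay outside it. Qars had 848, 535, 499 and 589 in ketone libraries, and 840, 427, 857 and 838 in PBS libraries. PBS library 2 was the lowest of all 8 for Qars, and the 95% interval was -0.76 to 0.29. Sars (serine) had 1563, 1216, 1180 and 1197 in ketone libraries, and 1838, 1440, 1541 and 1647 in PBS libraries, with ketone library 1 inside the PBS range. Its log2 change was -0.33 (limma adjusted p = 0.127, 95% interval -0.66 to -0.01).

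Among the ketone libraries none was the lowest or the highest of its group for more than 7 of 19 cytosolic genes. PBS library 2 was the lowest PBS library for 15 of 19 genes, and its median level was 82.8% of the PBS mean, against 111.9%, 109.5% and 100.02% in PBS libraries 1, 3 and 4. The median level in ketone libraries 1 to 4 was 56.5%, 59.7%, 56.5% and 62.7% of the PBS mean, below all PBS libraries. Endothelial markers summed to 103626, 114424, 49524 and 100850 in ketone libraries 1 to 4, and their part in the synthetase levels was not tested. Rn45s was high in ketone libraries 1 and 2 and not in 3 and 4, and without libraries 1 and 2 the number of cytosolic genes that fell was 17, with a median log2 change of -0.74, while 17.7% of all genes tested were then called lower.

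Levels between genes were compared per kilobase of annotated exon. That length joins the exons of all annotated transcripts of a gene (18102 bases for Eprs, 9282 for Aars, 4358 for Dars and 4355 for Nars). The order of genes therefore depends on the annotation. Before division by length, Eprs had the highest ketone mean (7070) and Aars the highest PBS mean (10502). In ketone libraries they ran from 94.0 for Qars to 1051 for Dars, with a median of 298 normalized counts per kilobase, and in PBS libraries from 113 for Qars to 1632 for Nars, with a median of 482. In PBS libraries Nars was followed by Dars (1499), Aars (1131) and Gars (1098), and neither Nars and Dars nor Aars and Gars differed beyond their spread. In ketone libraries Dars (1051) and Nars (1050) led and did not differ beyond their spread, while Aars and Gars stood at 486 and 485. Mitochondrial enzymes ran from 6.50 to 134 in ketone libraries (median 38.2) and from 4.05 to 166 in PBS libraries (median 68.1).

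Cytosolic synthetases come in 2 unrelated catalytic folds, and part of them sit together in the multisynthetase complex. Beside the 12.8% of all genes tested that were called lower, 6 of 8 class I genes fell (median log2 change -0.92), and 9 of 10 class II genes fell (median -0.61). Eprs, which has a domain of each class, was counted in neither. Among 7 enzymes of the complex 6 fell, with a median of -0.52 and 1 of them at least 2-fold lower (Iars). Among 12 cytosolic genes outside the complex 10 fell, with a median of -0.96 and 6 at least 2-fold lower. The difference between these sets was not tested.

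Mitochondrial synthetases fell in part. Of 14 tested, 5 fell and 0 rose, against the same 12.8% of all genes called in each direction, and the median log2 change was -0.54. In 5 of the 14 every ketone library was below every PBS library, against 14.1% of all genes, and 3 members (Hars2, Wars2 and Pars2) had a log2 change above 0. The call of Ears2 held in all 18 alternative analyses. The other 4 calls depended on single libraries: without PBS library 1, 3 or 4 or without ketone library 4 the number that fell was 1, and without ketone library 3 it was 2. Of all genes tested, 7.7%, 8.46% and 8.85% were called lower without PBS library 1, 3 or 4, 11.5% without ketone library 4 and 12.8% without ketone library 3.

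**Figure D3:**
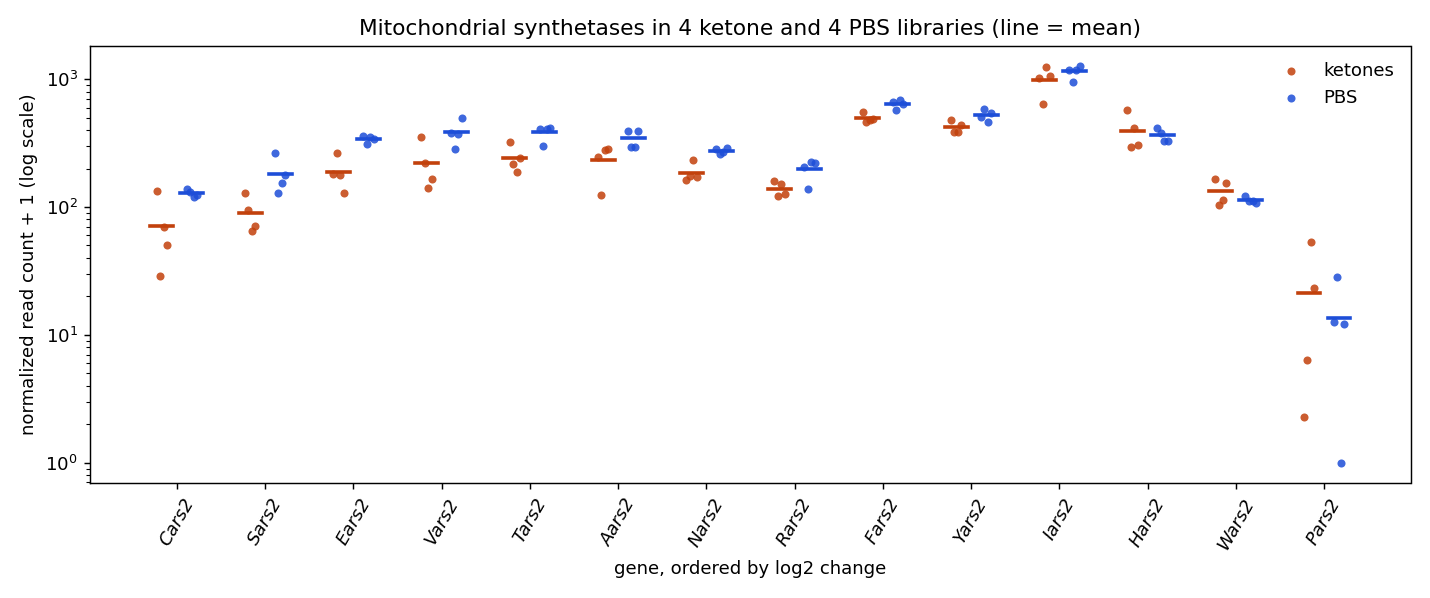
Normalized read count + 1 on a log scale (y axis) for 14 mitochondrial synthetase genes (x axis, from the lowest log2 change on the left) in 4 ketone libraries (left of each pair) and 4 PBS libraries (right). Points are libraries and lines are group means; the groups do not overlap for Sars2, Ears2, Aars2, Nars2 and Fars2, and Pars2 is near the floor in both groups.

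Ears2, which charges glutamate in mitochondria (chromosome 7, 122037213 to 122067263), had 181, 263, 178 and 127 counts in the ketone libraries, and 359, 311, 355 and 338 in PBS libraries. All ketone libraries were below all PBS libraries, and the PBS libraries were tight (341 ± 22.0, SD, n = 4) beside the ketone ones (187 ± 56.1, SD, n = 4). The log2 change was -0.91 ± 0.23 (limma adjusted p = 0.0108). Sars2, the mitochondrial seryl enzyme (chromosome 7, 28741992 to 28753871), had 127, 94.5, 63.7 and 70.2 in ketone libraries, and 263, 127, 154 and 177 in PBS libraries. For Sars2 ketone library 1 and PBS library 2 were practically level, and the log2 change was -1.01 ± 0.30 (limma adjusted p = 0.026). Nars2 (asparagine; chromosome 7, 96951505 to 97064758) had 162, 175, 233 and 170 in ketone libraries, and 284, 259, 270 and 287 in PBS libraries. The Nars2 groups did not overlap, and the log2 change was -0.58 ± 0.20 (limma adjusted p = 0.048), a call that was lost in 11 of the 18 alternatives.

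Vars2 and Tars2 passed with groups that overlapped. Vars2 (valine; chromosome 17, 35655634 to 35667592) had 349, 220, 139 and 165 counts in ketone libraries, and 377, 282, 375 and 494 in PBS libraries. Tars2 (threonine; chromosome 3, 95739976 to 95760206) had 321, 216, 186 and 239 in ketone libraries, and 409, 300, 409 and 415 in PBS libraries. In both genes ketone library 1 was above PBS library 2, and the log2 changes were -0.87 ± 0.28 and -0.69 ± 0.22 (limma adjusted p = 0.0359 and 0.0313).

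The 9 mitochondrial genes that did not pass had log2 changes from -1.08 to 0.51. Cars2 (cysteine) had 133, 27.9, 68.7 and 49.1 counts in ketone libraries, and 137, 129, 119 and 122 in PBS libraries. Ketone library 1 lay among the PBS values of Cars2 and the other 3 ketone libraries lay well below, so that its log2 change of -1.08 ± 0.40 had a limma adjusted p of 0.062, 0.00657 without ketone library 1 and 0.00727 without ketone libraries 1 and 2. Aars2 (alanine) had 247, 123, 277 and 284 in ketone libraries, and 390, 294, 295 and 392 in PBS libraries. Fars2 (phenylalanine) had 557, 457, 478 and 486 in ketone libraries, and 666, 571, 680 and 643 in PBS libraries. Neither gene overlapped between groups, and neither passed, at -0.62 and -0.37 (limma adjusted p = 0.108 and 0.1). Rars2 (arginine), Yars2 (tyrosine) and Iars2 (isoleucine) overlapped, at -0.49, -0.32 and -0.25.

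Hars2 and Wars2, the mitochondrial histidyl and tryptophanyl enzymes, did not pass and had log2 changes above 0. Hars2 had 571, 295, 414 and 302 counts in ketone libraries, and 418, 377, 327 and 328 in PBS libraries. Wars2 had 164, 103, 112 and 153 in ketone libraries, and 120, 110, 110 and 106 in PBS libraries. In each the ketone libraries lay both above and below the PBS libraries. Their log2 changes were 0.08 and 0.23, and their 95% intervals, -0.41 to 0.56 and -0.31 to 0.77, exclude a fall of the size of Ears2. Hars and Hars2 share exon bases on opposite strands, and Iars2 shares exon bases with Rab3gap2 on the opposite strand, so these counts are uncertain without strand. Pars2 (proline) rested on 2, 5, 52 and 22 reads in ketone libraries and 13, 26, 0 and 8 in PBS libraries, and no change was detectable at this depth (log2 change 0.51, limma adjusted p = 0.782).

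Across the 14 mitochondrial genes the median level in ketone libraries 1 to 4 was 85.4%, 59.4%, 75.3% and 69.8% of the PBS mean, and in PBS libraries 1 to 4 it was 104.7%, 90.2%, 98.1% and 101.7%. Every ketone library was thus below every PBS library, with ketone library 1 the nearest. Ketone library 1 was the highest of its group for 9 of 14 genes, and PBS library 2 was the lowest of its group for 9 of 14. Without ketone libraries 1 and 2, which held the most Rn45s, 5 mitochondrial genes fell, beside 17.7% of all genes tested, and the median log2 change was -0.43.

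The ratio of a cytosolic gene to its mitochondrial counterpart within 1 library does not depend on how libraries are scaled. Of 14 pairs, 11 had a lower ratio in ketone libraries, with a median difference of -0.36 on the log2 scale. By a two-sided exact permutation test over 70 assignments 3 pairs gave p = 0.0286, the smallest p that 4 against 4 libraries allow. After Benjamini-Hochberg adjustment 0 of 14 passed (adjusted p = 0.133). At that smallest p 1 pair alone cannot pass, so the 0 does not show that the ratios were unchanged. Log2 Yars/Yars2 was 1.69, 2.56, 2.29 and 2.03 in ketone libraries, and 3.01, 2.66, 3.13 and 2.67 in PBS libraries, a difference of -0.72 ± 0.22 (SE). Log2 Wars/Wars2 was 3.06, 3.52, 3.31 and 3.52 in ketone libraries, and 3.67, 3.85, 3.73 and 3.85 in PBS libraries (difference -0.42 ± 0.12). Serine went the other way, as Sars2 was lower while Sars did not pass. Log2 Sars/Sars2 was 3.61, 3.67, 4.19 and 4.07 in ketone libraries, and 2.80, 3.49, 3.32 and 3.21 in PBS libraries (difference 0.68 ± 0.20). These 3 pairs were the ones with no overlap between groups.

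**Figure D4:**
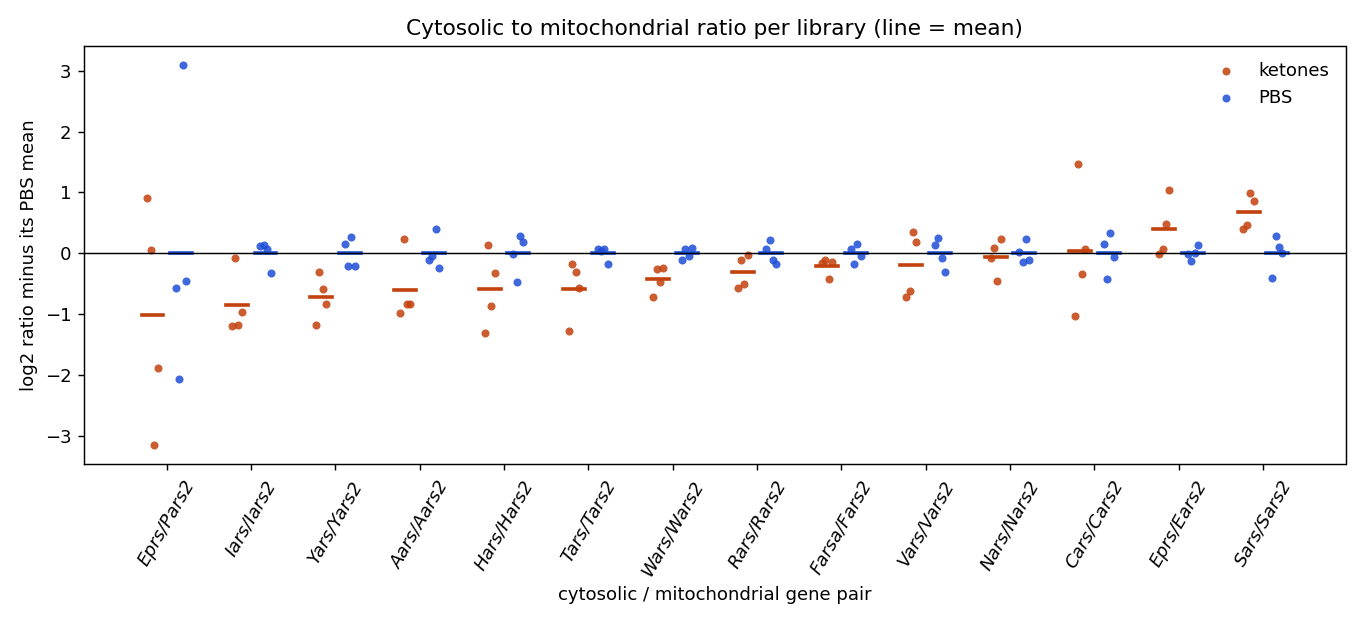
Log2 ratio of the cytosolic to the mitochondrial gene, minus the PBS mean of the same pair (y axis), for 14 pairs (x axis) in 4 ketone libraries (left) and 4 PBS libraries (right). Points are libraries and lines are means; Yars/Yars2 and Wars/Wars2 lie wholly below, and Sars/Sars2 wholly above, their PBS libraries.

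The partners of the synthetases were counted by their roles, beside the 12.8% of all genes tested that were called lower and the 12.8% called higher. Of the 3 scaffolds of the multisynthetase complex Eef1e1 fell, with 665, 1132, 772 and 728 counts in ketone libraries and 1293, 1444, 1456 and 1144 in PBS libraries (log2 change -0.72, limma adjusted p = 0.0107). Aimp1 and Aimp2 did not pass, at -0.07 and -0.32. None of the 4 tested subunits of elongation factor 1, which takes charged tRNA to the ribosome, passed, and Eef1a1 was at 0.21. Of 13 genes of tRNA maturation and export 6 fell and 0 rose. Among these, Pop1, of ribonuclease P, was at -1.60 and the tRNA 3′ processing enzyme Elac2 at -1.09. Xpot, the exporter of tRNA from the nucleus, had 475, 1071, 1374 and 1154 in ketone libraries and 1537, 1821, 1479 and 1201 in PBS libraries and did not pass (limma adjusted p = 0.0948). Aarsd1, a protein related to the editing domain of the alanyl enzyme, fell by 1.18 on the log2 scale and was the 1 of 6 trans-editing and recycling genes that passed. Among 5 genes of selenocysteine charging Eefsec fell by 0.43. In mitochondria, the elongation factor genes Gfm1 and Tsfm fell by 0.97 and 0.82, and the other 8 of 10 tRNA partner genes did not pass. The counts of 1 of 6, 1 of 5 and 2 of 10 in these last 3 lists were near the share over all genes.

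Genes of the integrated stress response changed in part. Of 27 tested, 12 fell and 1 rose, against 12.8% of all genes tested called in each direction, with a median log2 change of -0.30. Sesn2 had 762, 720, 948 and 1119 counts in ketone libraries, and 3829, 3883, 3866 and 3908 in PBS libraries, with wide separation. The serine synthesis genes Phgdh and Psat1 fell by 3.21 and 3.11 and the folate enzyme gene Mthfd2 by 2.33 on the log2 scale. Atf4 itself had 13471, 20319, 18524 and 15982 counts in ketone libraries, and 17794, 19606, 20294 and 18766 in PBS libraries, with a log2 change of -0.18 (limma adjusted p = 0.445, 95% interval -0.52 to 0.17). Asns, the asparagine synthetase and a textbook ATF4 target, was at 0.55 and did not pass (limma adjusted p = 0.156). Of 9 genes of this list with the motif in the promoter, 3 fell (Chac1, Trib3 and Pycr1), 1 rose (Vldlr) and 5 did not pass, and of 16 without it 7 fell. Both counts stand beside the shares of all tested genes called lower, 12% with the motif and 13.2% without it, and rest on few genes.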

How the data were processed

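RNA was measured in 4 ketone and 4 PBS libraries, grouped by the treatment in the labels. Per the labels' protocols, cDNA was primed with oligo(dT), sheared and amplified. Per the submitters' processing notes, Trim Galore, STAR, featureCounts, Subread and DESeq2 were used with build mm10. Their versions, settings and use of strand could not be stated (not given in the sources used here). Values were deposited by the authors as a normalized signal, read counts divided by 1 factor per library. Dividing by what 1 read is worth gave whole reads for 100% of values (tolerance 0.001 read). Of 25239 rows, 2 with a date in place of a symbol were left out.

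Genes averaging at least 10 normalized counts were kept (14022). Their log2(normalized count + 1) was fitted by limma 3.58.1 (R 4.3.3; trend on, no covariates), with Benjamini-Hochberg adjustment and a threshold of 0.05. The test was checked on simulated data. The fit was repeated with a pseudocount of 0.5 or 5, without the filter or with a minimum mean of 50, after TMM scaling or scaling to equal totals, with DESeq2 1.42.0 and edgeR 4.0.16 run on the reads (edgeR called 1679 genes lower and 1918 higher), with the library number as a block, and with libraries left out. Exon lengths and coordinates are from GENCODE for GRCm38, the build called mm10. Counts of members stand beside those over all genes, with no test of the set. Members, lists and the motif were chosen with earlier results of these data known. By the rule for named genes, every member was accounted for, with values in each library for those that passed, and up to 3 genes that passed were taken from each partner list. Marker lists are given by counts and sums, and some items that the rule would name are not reported here. Vcam1, Pecam1, Acta2, Dpt, Col1a1, Sesn2, Atf4, Asns, Xpot, Eef1a1, Aimp1, Aimp2 and Pax7 were named beyond this rule, after their values were seen. The same holds for Myf5, Chodl, Cxcr4, Sdc4, Des and the stress genes with the motif.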

Additional observations from a re-analysis of the deposited data

Results flagged for a closer look

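In 9 of 94 groups of 4 values (33 genes and 14 ratios in each treatment), 1 library stood far from the other 3, where chance gives about 1 in 20. Among ketone libraries, library 2 was high for Hars (1698 normalized counts, others 1197 to 1268) and library 1 was high for Sars (1563, others 1180 to 1216). PBS library 2 was low for Eprs (8332, others 10389 to 10800), for Qars (427, others 838 to 857) and for Tars2 (300.3, others 409 to 415). On the log2 scale, ketone library 2 was high for Aars/Aars2 (5.18, others 3.97 to 4.11) and ketone library 3 was low for Farsa/Fars2 (0.0731, others 0.324 to 0.373). PBS library 4 was low for Iars/Iars2 (0.817, others 1.22 to 1.28) and for Tars/Tars2 (3.31, others 3.53 to 3.57).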

How the results depend on the processing

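The number of cytosolic synthetases that fell was 16, and 12 to 16 over the scaling, filter, pseudocount and tool alternatives. It was 14 with the replicate block and 11 to 16 without 1 library, and 0 rose in any of these. The 11 came without PBS library 1, 3 or 4. Of all genes tested, 7.7%, 8.46% and 8.85% were then called lower, against 12.8% in the main fit. Of the 16, 11 passed in all 18 alternatives. The number of mitochondrial synthetases that fell was 5, but 2 with no filter on low values, 2 with equal library totals and 1 to 6 without 1 library (1 without PBS library 1, 3 or 4 or ketone library 4, 2 without ketone library 3). Their median log2 change was -0.63 to -0.38 without 1 library (-0.38 without ketone library 2). With equal totals the all-gene median was 0.05. The cause of these shifts was not tested. Genes that did not pass turned sign as follows: Hars2 to -0.12 without ketone library 1 (-0.12 to 0.20 without 1 library) and -0.029 without ketone libraries 1 and 2, Iars2 to 0.0026 without ketone libraries 1 and 2, and Pars2 to -0.23 without ketone library 3 and -0.50 without PBS library 3 (-0.50 to 1.29). Ratios that did not pass also turned: Cars/Cars2 to -0.016 with a pseudocount of 5, -0.43 without ketone library 2 (-0.43 to 0.40), -0.10 without PBS library 2 and -0.14 without ketone libraries 1 and 2; Nars/Nars2 to 0.0803 and 0.02 without ketone or PBS library 3 (-0.15 to 0.0803); Eprs/Pars2 to 0.014 without PBS library 3 (-1.70 to 0.014); and Vars/Vars2 to 0.27 without ketone libraries 1 and 2. The number of ratio pairs past the threshold stayed at 0, which is no measure of stability. With 4 against 4 libraries the smallest p is 0.0286, so a pair could pass after adjustment only if many pairs reached it. Without ketone libraries 1 and 2 there are too few assignments for any pair to pass. The library numbers are not said to pair samples, and deviations of same-numbered libraries correlated at -0.061 to 0.106; with the block Hars, Kars and Nars2 lost their calls and Cars2 gained one. Depth limits Pars2 above all.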
